A study of Mus musculus with 24 samples.

Results

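Cathepsins are the main proteases of the lysosome, the acidic compartment in which cells break down what they take up. The members described here are the 10 mouse genes Ctsa, Ctsb, Ctsc, Ctsd, Ctse, Ctsf, Ctsh, Ctsl, Ctss and Ctsz, taken as a fixed list from the 41388 genes of the count table. They were followed in macrophages, phagocytes that live in every tissue, here sorted by flow cytometry from 2 sources. These were the dura, the tough outer layer of the meninges, and the diaphragm, the breathing muscle below the lungs. All samples came from C57BL/6 mice that were wild type, 17 weeks old and at steady state, perfused with saline before the tissue was taken. The labels list 24 samples as macrophages C1, C2 and C3 of each tissue, 9 from dura and 15 from diaphragm. The sources used here do not say how C1, C2 and C3 were told apart, nor how many animals stand behind a sample. The column names of the table do not carry C1, C2 or C3. Dural columns carry a mark, P4, P5 or P6, and a number, 1, 3 or 4. Diaphragm columns carry a number alone. Neither do these sources say what the marks stand for. The dural marks were therefore compared as they stand, with 3 libraries each, and the diaphragm libraries were described in the sets 1 and 7, 2 and 8, and 3, 6 and 9, which no label names and which were given no test. The series title names mice deficient in RAG-1 that received T cells, and none of the labels used here names such a mouse.

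Most cathepsins are cysteine proteases of the papain type, which are made as inactive proenzymes and cut to their mature form in the acid lumen. Cathepsins L, S, B and F cut inside a protein chain, whereas cathepsins C, H and Z mainly trim its ends. Cathepsins D and E are aspartic proteases, and cathepsin A is a serine carboxypeptidase that also holds other lysosomal enzymes in a stable complex. Macrophages are rich in these enzymes, which degrade engulfed material and cut both antigens and the invariant chain (Cd74) that occupies MHC class II molecules until a peptide is loaded.

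The 16 libraries held between 10457920 and 30132295 counts, with 9 from dura and 7 from diaphragm. The diaphragm libraries, all but number 6, are each the sum of a column and its repeat run. Levels are given as CPM, counts per 1000000 counts of a library after TMM scaling, and differences as log2 fold changes with the standard error (SE) of edgeR's quasi-likelihood test and its adjusted p over all genes tested. A gene is called where that adjusted p is under 0.05. All 10 macrophage markers were detected in every library, with a summed level of 14600 to 21300 CPM. The 9 markers of fibroblasts, the matrix-making cells of connective tissue, summed to 2430 to 4320 CPM in P4, 821 to 1040 in P5, 599 to 772 in P6, and 10200 to 20300 in diaphragm libraries 1 and 7. Diaphragm libraries 1 and 7 also held the most endothelial markers (1040 to 1070 CPM, at most 517 CPM elsewhere) and mesothelial markers (16.9 to 42.9 CPM, at most 6.81 CPM elsewhere). Mast cell markers summed to 35.0 to 152 CPM in P4 and 1.95 to 5.37 CPM in P6. A dendritic cell list summed to 577 to 784 CPM in diaphragm libraries 3, 6 and 9 and to at most 163 CPM elsewhere. Skeletal muscle markers summed to 128 to 283 CPM in diaphragm and to at most 12.6 CPM in dura. No animal or date is given for a column, so a p-value measures no more than the spread from library to library, which may be technical, and any difference in handling between the tissues cannot be told apart from the tissue.

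Within the dura, the cathepsins moved in opposite directions between P4 and P6. Cathepsins L, D, F, B and C were lower in P6 than in P4, cathepsins E, S, Z and H were higher, and cathepsin A did not pass the test. In all, 9 of the 10 members were called, 4 higher and 5 lower, in a comparison in which 33.3% of 13239 genes were called (2118 higher and 2285 lower). Of the members, 5 were called and differed at least 2-fold (Ctsd, Ctsf, Ctsl, Ctss and Ctse), as did 16.3% of all genes. The 3 libraries of P6 lay wholly above or wholly below those of P4 for each of the 10 members and for 46.6% of all genes tested. The median log2 difference was -0.19 over the members and -0.004 over all genes. In bulk RNA of sorted cells, fewer cells of one kind and less of a transcript per cell cannot be told apart.

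P5 lay between P4 and P6 for part of the list. Against P4, 4 members were called in P5, Ctss and Ctsh higher and Ctsd and Ctsl lower, where 7.35% of all genes were called. With the dural number as a block, Ctsc was called higher in P5 besides these 4, and 11.9% of all genes were called. Libraries of P5 and P4 did not overlap for 6 members and for 25.9% of all genes. Against P5, 8 members were called in P6, Ctse, Ctsz and Ctss higher and Ctsb, Ctsc, Ctsd, Ctsf and Ctsl lower, where 17.4% of all genes were called. Libraries of P6 and P5 did not overlap for 9 members and for 36.0% of all genes. The median log2 difference of the members was 0.10 between P5 and P4 and -0.27 between P6 and P5, with -0.007 and 0.004 over all genes. The 3 comparisons share libraries, so their results are not independent of each other.

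**Figure D1:**
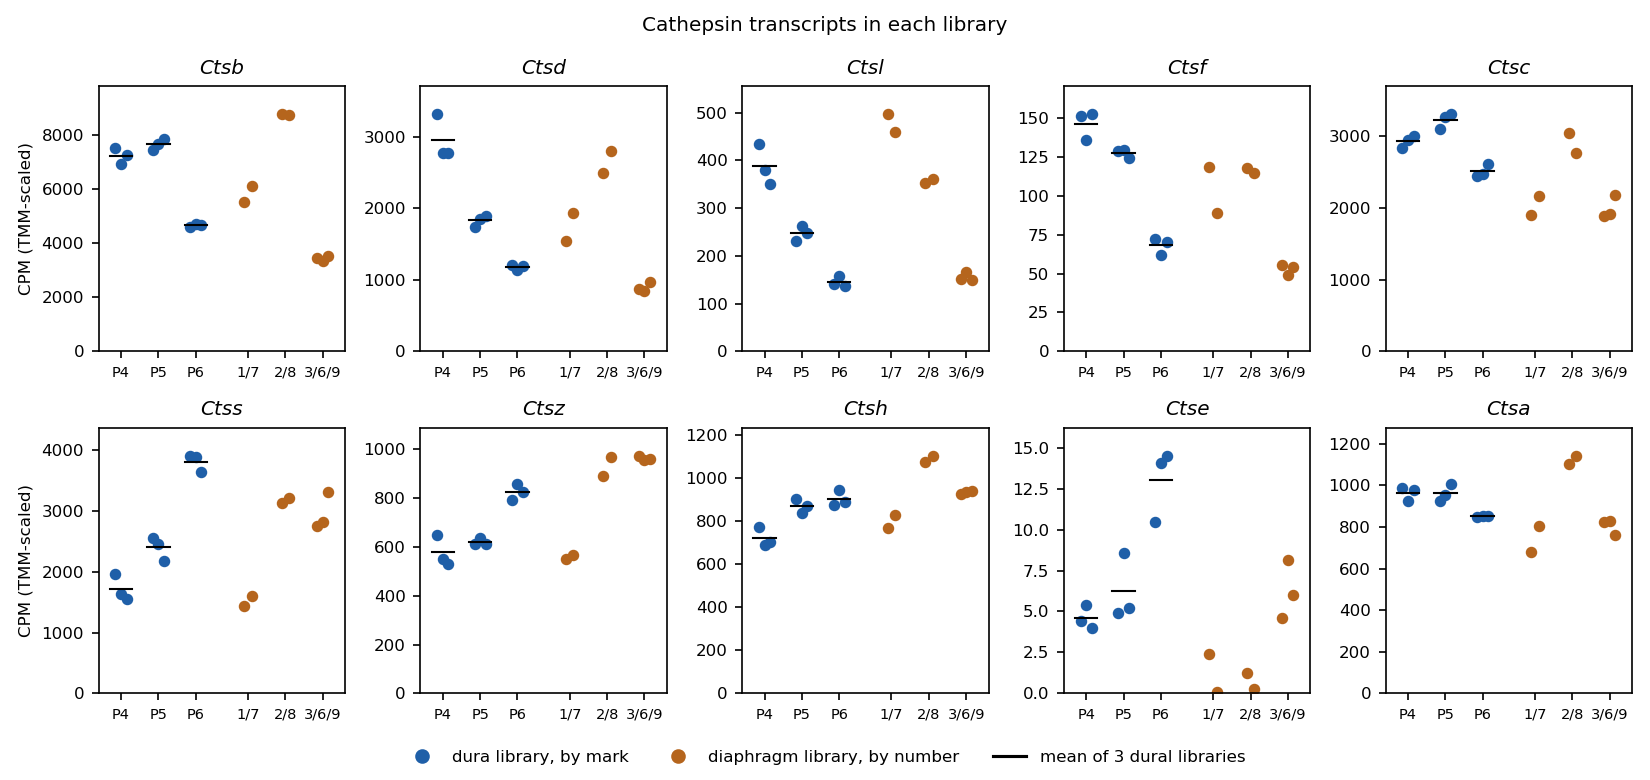
Level of each of the 10 cathepsin transcripts in the 16 libraries, in CPM on a linear axis from 0, with dural libraries (blue) by mark and diaphragm libraries (brown) by number; black lines are the means of 3 dural libraries. Ctsd and Ctsl stepped down and Ctss stepped up from P4 through P5 to P6, whereas among the dural marks Ctsb was lower in P6 than in the other 2.

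Promoters are shown because these genes share a compartment but moved apart. The transcription factor TFEB and its relatives bind a site called the CLEAR element, built on the E-box CACGTG, and PU.1, the factor of the macrophage lineage, binds sites that hold GAGGAAGT. Both motifs were chosen with the results known. Both strands were searched from 250 bases before to 50 bases after each start site, in RefSeq sequences of GRCm38.p6, which hold 7 of the 10 members (all but Ctsb, Ctse and Ctsh). Positions are counted from the RefSeq start site, which lies 211 bases inside the GENCODE bounds of Ctsd, 370 inside those of Ctsl and 35 inside those of Ctsf. The second of the 2 listed starts of Ctsa lies 900 bases inside those of that gene. The second site of Ctsd and that of Ctsl below thus stand before a RefSeq start but within the bounds of the gene as GENCODE draws them. CACGTG stood in the windows of 4 members, Ctsd, Ctsf, Ctsl and Ctsa, and in 7.15% of 32851 promoters of the same length. GAGGAAGT stood in the windows of Ctss and Ctsc and in 3.2% of promoters, and neither motif stood in that of Ctsz. No match of one motif overlapped a match of the other. The sites are printed 5′ to 3′ on the strand of the gene with the motif in capitals, which is the reverse complement ACTTCCTC for Ctss and Ctsc.
Ctsd, 245 bases before the RefSeq start, chr7:142388055-142388077, minus strand: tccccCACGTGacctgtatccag
Ctsd, 98 bases before the RefSeq start, chr7:142387908-142387937, minus strand: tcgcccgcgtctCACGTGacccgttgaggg
Ctsf, 79 bases before the RefSeq start, chr19:4855074-4855103, plus strand: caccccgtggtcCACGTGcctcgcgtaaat
Ctsl, 236 bases before the RefSeq start, chr13:64370739-64370768, minus strand: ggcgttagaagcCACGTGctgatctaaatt
Ctsc, 151 bases before the RefSeq start, chr7:88277923-88277952, plus strand: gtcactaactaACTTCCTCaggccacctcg
Ctss, across the RefSeq start, chr3:95526773-95526802, plus strand: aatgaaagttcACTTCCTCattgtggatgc
Ctsa has CACGTG at 12 bases before and at base 6 after the second of its 2 listed start sites, both within the GENCODE bounds of the gene. Neither motif stood in the window of its first start site. A match of letters is a description of the window and says nothing on whether a factor was bound there. The region before the start of Ctss, the transcript whose level rose most among the abundant members, is given whole because its motif lies on the start itself.
Ctss, 250 bases before to 20 after the start, chr3:95526536-95526805, plus strand: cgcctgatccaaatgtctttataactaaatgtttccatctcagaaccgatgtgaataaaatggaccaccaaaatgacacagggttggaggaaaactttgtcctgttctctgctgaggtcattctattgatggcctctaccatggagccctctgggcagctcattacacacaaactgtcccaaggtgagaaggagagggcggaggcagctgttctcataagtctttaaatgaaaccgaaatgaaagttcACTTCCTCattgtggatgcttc

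Among the enzymes that cut inside chains, cathepsin L (Ctsl, ENSMUSG00000021477, chr13:64359337-64370890), which cuts the invariant chain in thymic epithelium, fell at each step. Its level was 434, 379 and 350.3 CPM in the P4 libraries, 231, 262 and 248 CPM in P5 and 142, 159 and 136 CPM in P6. No library of one mark overlapped those of another. The log2 difference of P6 from P4 was -1.41 ± 0.10 (SE, n = 3 against 3, edgeR adjusted p = 1.09e-06), that is 2.65-fold lower, of P5 from P4 -0.65 ± 0.10 (adjusted p = 0.00219) and of P6 from P5 -0.76 ± 0.10 (adjusted p = 0.000301). Diaphragm libraries 1 and 7 held 496 and 459.6 CPM of it, with 352 and 361 CPM in 2 and 8 and 151, 167 and 149 CPM in 3, 6 and 9. The highest 2 libraries of the series for Ctsl were thus diaphragm 1 and 7.

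Cathepsin S (Ctss, ENSMUSG00000038642, chr3:95526786-95556403), which makes the last cuts of the invariant chain in antigen-presenting cells and stays active at neutral pH, went the other way. Its level was 1958, 1637 and 1551 CPM in P4, 2559, 2462 and 2173 CPM in P5 and 3892, 3881 and 3635 CPM in P6. Again the 3 marks did not overlap. P6 exceeded P4 by 1.16 ± 0.09 on the log2 scale (2.23-fold, n = 3 against 3, edgeR adjusted p = 1.28e-06), P5 exceeded P4 by 0.49 ± 0.09 (adjusted p = 0.00462) and P6 exceeded P5 by 0.67 ± 0.09 (adjusted p = 0.000228). In the diaphragm it was lowest in libraries 1 and 7, at 1435 and 1601 CPM. It stood at 3125 and 3206 CPM in libraries 2 and 8 and at 2748, 2813 and 3302 CPM in 3, 6 and 9, so these last 2 sets overlapped.

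Cathepsin B (Ctsb, ENSMUSG00000021939, chr14:63122462-63145923), which cuts inside chains and also removes dipeptides from their ends, had the most counts of the list in every library. It stood at 7513, 6925 and 7277 CPM in P4 and 7470, 7686 and 7870 CPM in P5, which overlapped, and at 4590, 4731 and 4660 CPM in P6. P6 was lower than P4 by a log2 difference of -0.63 ± 0.05 (n = 3 against 3, edgeR adjusted p = 1.02e-06) and lower than P5 by -0.72 ± 0.05 (adjusted p = 9.11e-07). In the diaphragm the order was steeper, with 8768 and 8733 CPM in libraries 2 and 8, 5527 and 6123 CPM in 1 and 7, and 3442, 3347 and 3518 CPM in 3, 6 and 9. All 3 of the last set lay below every dural library.

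Cathepsin F (Ctsf, ENSMUSG00000083282, chr19:4855130-4860918), a cysteine protease known to process the invariant chain in macrophages, was scarcer. It was at 151, 136 and 152 CPM in P4, 129, 129 and 124 CPM in P5 and 72.4, 62.0 and 70.4 CPM in P6. P6 was 2.13-fold lower than P4, a log2 difference of -1.09 ± 0.09 (n = 3 against 3, edgeR adjusted p = 2.75e-06), and lower than P5 by -0.90 ± 0.09 (adjusted p = 3.37e-05), whereas P5 and P4 did not differ past the threshold (-0.20 ± 0.09, adjusted p = 0.256). Diaphragm libraries 3, 6 and 9 were again low, at 55.5, 48.9 and 54.0 CPM, beside 88.5 to 118 CPM in the other 4.

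The proportion of cathepsin S to other endopeptidases is given as a description, because the pairs were formed from genes already seen to move in opposite directions. Exact permutation tests of the dural ratios gave p = 0.1 each, the lowest that 3 against 3 libraries allow, so they decide nothing. Between the tissues these tests gave p = 0.443 to 0.743. The ratio of Ctss to Ctsl counts, with no correction for transcript length, was 4.42 ± 0.10 (SD, n = 3) in P4, 9.75 ± 1.21 in P5 and 26.2 ± 1.58 in P6, a 5.92-fold difference between P6 and P4. In the diaphragm it was 2.89 and 3.48 in libraries 1 and 7, 8.87 and 8.89 in 2 and 8, and 16.8 to 22.1 in 3, 6 and 9. The ratio of Ctss to Ctsd counts went from 0.580 ± 0.018 in P4 to 1.31 ± 0.16 in P5 and 3.23 ± 0.18 in P6, and that of Ctss to Ctsb from 0.237 ± 0.024 to 0.313 ± 0.034 and 0.816 ± 0.034. The marks did not overlap in any of these ratios. All 10 genes together took 1.94% ± 0.09 of the counts in P4, 1.82% ± 0.02 in P5 and 1.51% ± 0.01 in P6, and 1.05% to 2.01% in the diaphragm libraries.

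**Figure D2:**
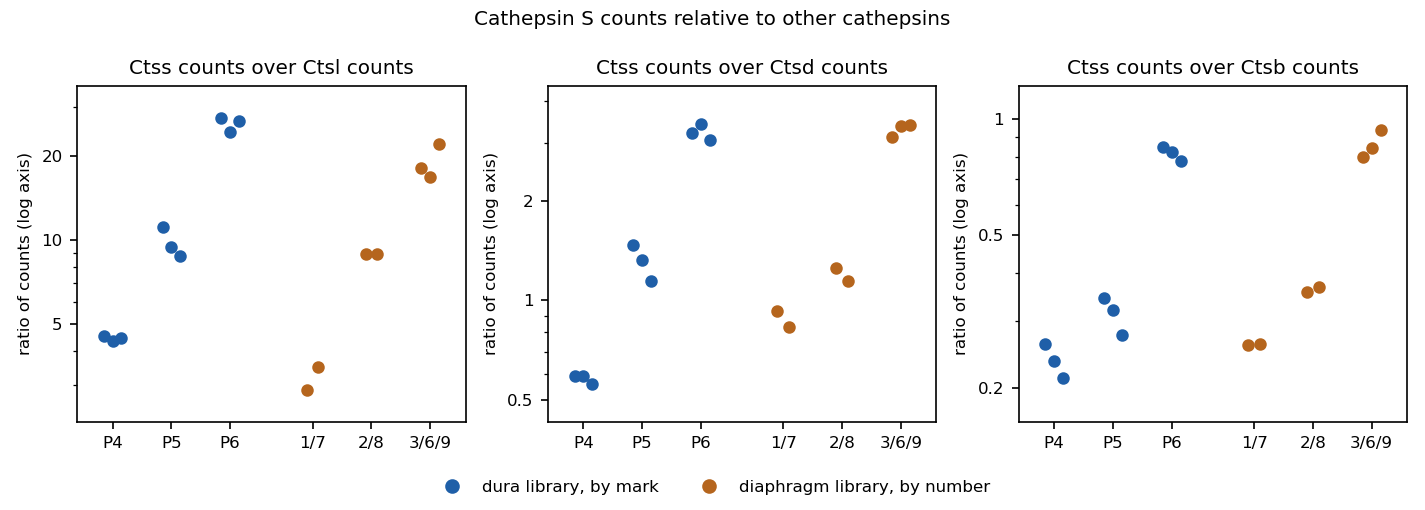
Ratio of Ctss counts to Ctsl, Ctsd and Ctsb counts in each of the 16 libraries, on log axes, with dural libraries (blue) by mark and diaphragm libraries (brown) by number. For Ctsl the ratio was 4.32 to 4.51 in P4 and 24.4 to 27.4 in P6, and the diaphragm sets ran from 2.89 to 22.1.

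Of the aspartic proteases, cathepsin D (Ctsd, ENSMUSG00000007891, chr7:142375911-142388038), the main aspartic endopeptidase of lysosomes, was abundant and fell at each step. It stood at 3312, 2776 and 2776 CPM in P4, 1741, 1857 and 1892 CPM in P5 and 1213, 1134 and 1190 CPM in P6. The marks did not overlap. P6 was 2.49-fold lower than P4 (log2 difference -1.32 ± 0.08, n = 3 against 3, edgeR adjusted p = 1.29e-07), P5 was lower than P4 by -0.69 ± 0.07 (adjusted p = 0.0002) and P6 lower than P5 by -0.63 ± 0.07 (adjusted p = 0.000106). In the diaphragm the highest were libraries 2 and 8, at 2491 and 2806 CPM, and the lowest 3, 6 and 9, at 879, 838 and 971 CPM, with 1540 and 1930 CPM in 1 and 7.

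Cathepsin E (Ctse, ENSMUSG00000004552, chr1:131638306-131675505), an aspartic protease of endosomes in immune cells, was the rarest member. It was at 4.43, 5.39 and 3.99 CPM in P4, 4.91, 8.56 and 5.22 CPM in P5 and 10.5, 14.04 and 14.5 CPM in P6, from 51 to 215 counts per library. P6 exceeded P4 by 1.50 ± 0.28 on the log2 scale (2.84-fold, n = 3 against 3, edgeR adjusted p = 0.00124). P6 exceeded P5 by 1.07 ± 0.27 (adjusted p = 0.0174), a call that was lost when P5 replicate 1 or 4 or P6 replicate 3 or 4 was left out, with log2 differences of 0.93 to 1.00 and adjusted p = 0.0623 to 0.0829. In the diaphragm, libraries 3, 6 and 9 held 4.61, 8.14 and 6.04 CPM, whereas 1, 7, 2 and 8 held 0.111 to 2.41 CPM, down to 3 counts in library 7. Per kilobase of transcript or of coding sequence, Ctse ranked last of the 10 in both tissues, and the order among the most abundant members depended on which length was used.

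Of the enzymes that trim chain ends, Ctsz and Ctsh were higher in P6 than in P4 and Ctsc was lower. Cathepsin Z (Ctsz, ENSMUSG00000016256, chr2:174427493-174439039), a carboxypeptidase, was at 649.8, 552 and 531 CPM in P4, 613, 636 and 611 CPM in P5 and 792, 855 and 826 CPM in P6. P4 and P5 overlapped, and P6 lay above both, by 0.52 ± 0.08 over P4 (log2, n = 3 against 3, edgeR adjusted p = 0.000494) and 0.41 ± 0.08 over P5 (adjusted p = 0.00516). Diaphragm libraries 1 and 7 held 551 and 567 CPM of it, against 891 to 969.7 CPM in the other 5, all above every dural library.

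Cathepsin H (Ctsh, ENSMUSG00000032359, chr9:90054152-90076089), an aminopeptidase, was lowest in P4. It was at 772, 687 and 702 CPM in P4, 902, 839 and 871 CPM in P5 and 875, 943 and 886 CPM in P6, so P5 and P6 overlapped and both lay above P4. P6 exceeded P4 by 0.33 ± 0.07 (log2, n = 3 against 3, edgeR adjusted p = 0.00387). The call of P5 over P4 (0.28 ± 0.07, adjusted p = 0.0378) held in 8 of 17 alternatives. It was lost without P4 replicate 3 or 4, without any one P5 library and without P6 replicate 4, with log2 differences of 0.25 to 0.31 and adjusted p = 0.0538 to 0.154. It was also lost with library totals as the only scaling (0.15, adjusted p = 0.254), with upper-quartile factors (0.27, adjusted p = 0.0518) and in a fit of P4 and P5 alone (0.28, adjusted p = 0.0566). Diaphragm libraries 2 and 8 were highest of all, at 1074 and 1099 CPM, beside 769 to 937 CPM in the other 5.

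Cathepsin C (Ctsc, ENSMUSG00000030560, chr7:88278085-88310888), a dipeptidyl peptidase that activates serine proteases of granules, was abundant and was lowest in P6 among the dural marks. It was at 2828, 2938 and 2996 CPM in P4, 3094, 3259 and 3296 CPM in P5 and 2433, 2473 and 2606 CPM in P6. P5 was highest and P6 lowest without overlap. P6 was lower than P5 by a log2 difference of -0.36 ± 0.06 (n = 3 against 3, edgeR adjusted p = 0.000861) and lower than P4 by -0.21 ± 0.06 (adjusted p = 0.00986). The call against P4 was lost without P6 replicate 1 (-0.18, adjusted p = 0.0651) and with no filter on low counts (-0.22, adjusted p = 0.0503). P5 did not differ from P4 past the threshold (0.14 ± 0.06, adjusted p = 0.165), but was called higher with the dural number as a block (0.14 ± 0.03, adjusted p = 0.0142).

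Cathepsin A (Ctsa, ENSMUSG00000017760, chr2:164832873-164841032), the serine carboxypeptidase, was the one member not called in any dural comparison. It was at 987, 927 and 977 CPM in P4, 924, 956 and 1007 CPM in P5 and 846, 852 and 855 CPM in P6. The P6 libraries lay below all others of the dura, by a log2 difference of -0.17 ± 0.06 from P4 (n = 3 against 3, edgeR adjusted p = 0.0603). That difference was called in 5 of 17 alternatives. These were DESeq2 (-0.17, adjusted p = 0.0296), limma-voom (-0.17, adjusted p = 0.0473), and edgeR with library totals as the only scaling (-0.30, adjusted p = 0.00306), without P5 replicate 1 (-0.17, adjusted p = 0.0486) and with the dural number as a block (-0.17, adjusted p = 0.0182). From P5 the difference of P6 was -0.18 ± 0.06 (adjusted p = 0.0892), called in 2 of 17 alternatives, DESeq2 (-0.18, adjusted p = 0.041) and the block (-0.17, adjusted p = 0.0269). On its other strand lies Pltp, at 731 to 1574 CPM, and the kit does not keep strand, so reads of the 2 genes where they overlap cannot be told apart. The same holds for Ctsb with Fdft1, at 4.37 to 23.9 CPM, and for Ctsz with Nelfcd, at 23.0 to 37.9 CPM. It holds as well for Ctsc with Gm26522, at 1.82 to 10.6 CPM, and for Ctsa with Neurl2, at 1.62 to 6.41 CPM. Hmgb1-ps5 overlaps Ctss on its own strand, at 0.0374 to 1.76 CPM. Gm49369 overlaps Ctsd, and Gm47123 and Gm49230 overlap Ctsl, but these were not among the genes counted, so no level is given.

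**Figure D3:**
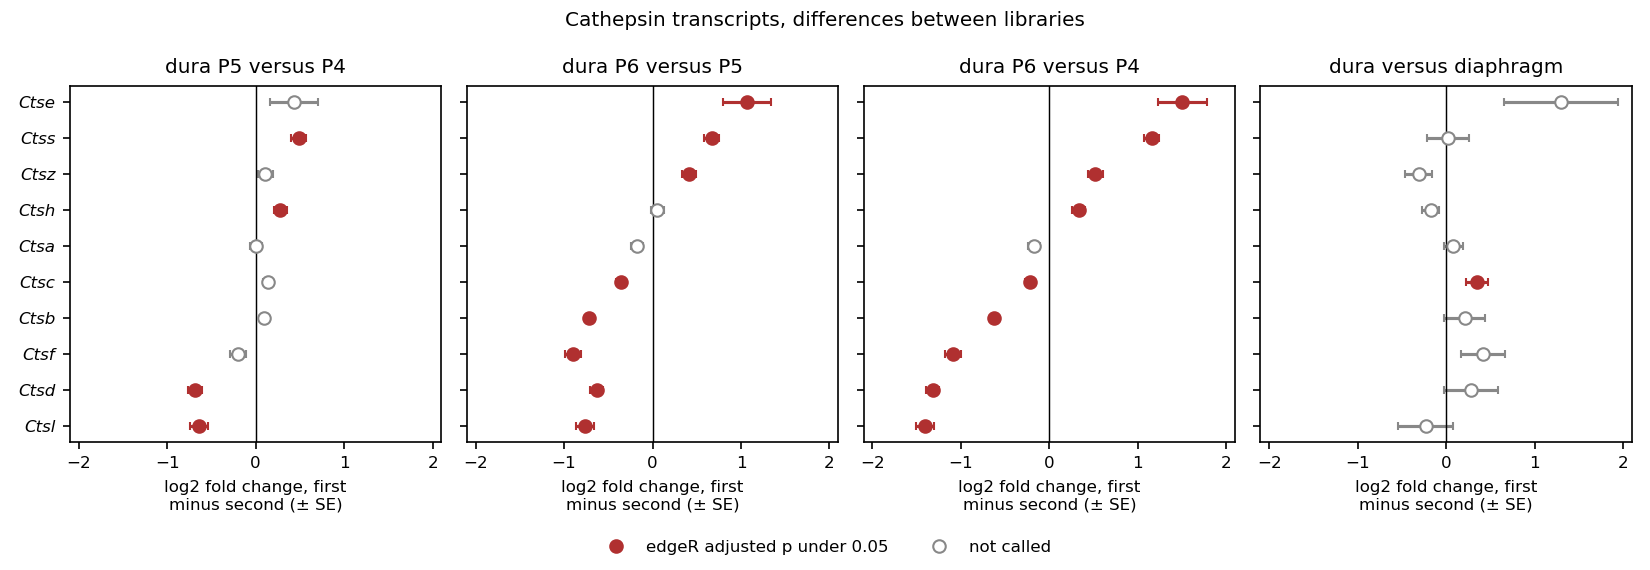
Log2 fold change of each cathepsin transcript in the 3 dural comparisons and between the tissues, with its standard error; filled red points have an edgeR adjusted p under 0.05 and open grey points do not. Between P6 and P4 the points run from -1.41 for Ctsl to 1.50 for Ctse, and between the tissues 1 point, Ctsc at 0.35, is filled.

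The fibroblast markers moved with the marks and are set beside these results. Their sum was highest in P4 among the dural libraries, as were Ctsd, Ctsl and Ctsf, and 8 of the 9 markers were lower in P6 than in P4 by edgeR, while Gsn was higher. Between P5 and P4, 8 of the 9 were lower in P5. Between P6 and P5 the sums did not overlap, at 599 to 772 and 821 to 1040 CPM, and 5 of the 9 markers were lower in P6 and 1 higher, where Ctsb, Ctsc, Ctsd, Ctsf and Ctsl were called lower too. The part of fibroblast RNA in the 3 comparisons was not tested. Diaphragm libraries 2 and 8 held 793 and 1180 CPM of fibroblast markers. Their levels were 8733 to 8768 CPM of Ctsb, 2491 to 2806 CPM of Ctsd and 352 to 361 CPM of Ctsl. Libraries 1 and 7 held 10200 to 20300 CPM of these markers. Their levels were 5527 to 6123 CPM of Ctsb, 1540 to 1930 CPM of Ctsd and 459.6 to 496 CPM of Ctsl. Of the mast cell list, 4 of 4 tested markers were lower in P6 than in P4, at summed levels of at most 152 CPM in dura. Of the dendritic cell list, 5 of 8 tested markers were higher and 3 lower in P6 than in P4, and its sum was 106 to 139 CPM in P4 and 118 to 157 CPM in P6. Of the macrophage list, 4 of 10 markers were higher and 2 lower in P6 than in P4. Of 8 markers of classical monocytes, the blood cells that can become macrophages, 2 were higher and 1 lower in P6 than in P4, and 4 were higher and 1 lower in P6 than in P5. Among them was Ccr2, the receptor that draws monocytes into tissue. It stood at 33.3 to 104 CPM in P4, 248 to 278 CPM in P5 and 1460 to 1642 CPM in P6. The sum of the list was 2628 to 3092 CPM in P4 and 2230 to 2457 CPM in P6. Most of that sum in P4 was F13a1, at 2483 to 3027 CPM there and 641 to 752 CPM in P6. Of 7 endothelial markers, 2 were lower in P6 than in P4 and 0 higher, at sums of 102 to 162 CPM in P4 and 13.8 to 94.2 CPM in P6. The part of these cells in the cathepsin results was not tested.

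**Figure D4:**
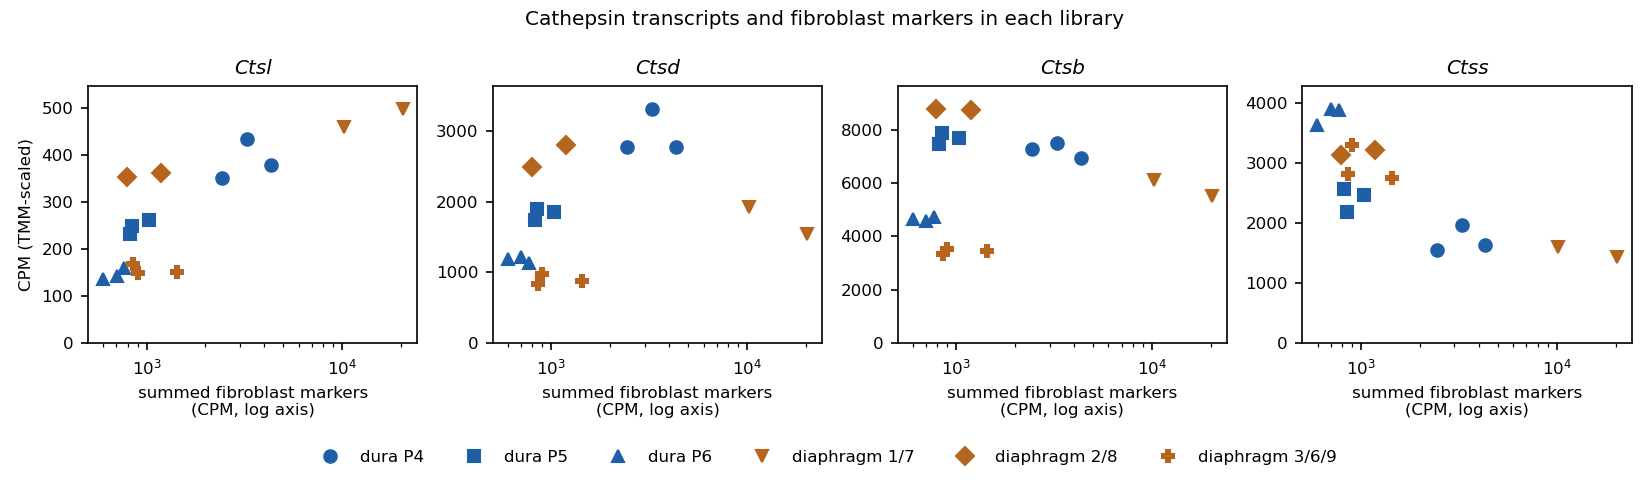
Level of Ctsl, Ctsd, Ctsb and Ctss in CPM (linear axis) against the summed level of 9 fibroblast markers in CPM (log axis) in the 16 libraries, with dural libraries in blue and diaphragm libraries in brown. Diaphragm libraries 1 and 7 lie farthest right, at 10200 to 20300 CPM, with the highest Ctsl, whereas the highest Ctsb, at 8733 to 8768 CPM, lies at 793 to 1180 CPM of markers.

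Between the tissues few cathepsins passed the test. Of the 10 members, 1 was called between dura and diaphragm, Ctsc, in a comparison in which 26.4% of 13136 genes were called. Ctsc was higher in dura by 0.35 ± 0.12 on the log2 scale (9 against 7 libraries, edgeR adjusted p = 0.0433), with 2433 to 3296 CPM (median 2938) in dura and 1880 to 3043 CPM (median 2156) in diaphragm, so the tissues overlapped. Its call held in 12 of 28 alternatives, and over all 28 the adjusted p ran from 0.00717 to 0.265. It was lost without any one P4 or P5 library and without diaphragm library 1, 3, 6, 7 or 9, with log2 differences of 0.31 to 0.36 and adjusted p = 0.0543 to 0.0882. It was also lost, at 0.29 (adjusted p = 0.113), without both diaphragm libraries 1 and 7. Further losses came with no filter on low counts, with dural libraries summed per number, and without all P4 or all P5 libraries. The fit held tissue alone and took the dural libraries as independent, although their numbers recur in each mark. Marks and diaphragm sets were pooled in it, so differences among them counted as spread within a tissue.

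The other 9 members were not called between the tissues, and dura and diaphragm libraries overlapped for each of the 10, whereas they did not overlap for 6.9% of all genes. At an unadjusted p under 0.05 the count of members was also 1, and the share of all genes at that limit was not counted. Ctse had the widest difference, 1.29 ± 0.64 (edgeR adjusted p = 0.148), with 3.99 to 14.5 CPM in dura and 0.111 to 8.14 CPM in diaphragm. Ctsz was at a median of 636 CPM in dura and 956 CPM in diaphragm (-0.31 ± 0.15, adjusted p = 0.134). Diaphragm libraries 1 and 7 held the most fibroblast, endothelial and mesothelial markers and the least Cd74 (1049 and 1170 CPM). Without libraries 1 and 7, Ctsz was called lower in dura (-0.50 ± 0.12, adjusted p = 0.00658), as it was without the P6 libraries (-0.46 ± 0.15, adjusted p = 0.0382). The P4 libraries, with the least Cd74 in dura, stayed in both fits. What moved the call was not tested. Without P6, Ctsf was called higher in dura as well (0.71 ± 0.21, adjusted p = 0.0239, beside 0.42 ± 0.25 and 0.232 with all libraries), and limma-voom called Ctse higher (2.33 ± 0.71, adjusted p = 0.0219). For Ctss the difference was 0.02 ± 0.24 (adjusted p = 0.964) and for Ctsl -0.23 ± 0.31 (adjusted p = 0.627). The spread within each tissue was wide, since Ctss spanned 1551 to 3892 CPM in dura and 1435 to 3302 CPM in diaphragm, and Ctsd 1134 to 3312 and 838 to 2806 CPM. The median log2 difference was 0.14 over the members and -0.01 over all genes.

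The other genes of the lysosome were taken from 8 lists. Among the partners of antigen processing, Cd74 itself was at 2405 to 2755 CPM in P4, 19200 to 20260 CPM in P5 and 32100 to 33890 CPM in P6. P6 exceeded P4 by 3.67 ± 0.06 (log2, n = 3 against 3, edgeR adjusted p = 9.38e-13). Diaphragm libraries 1 and 7 held 1049 and 1170 CPM of Cd74, with 18690 and 18060 CPM in 2 and 8 and 35630 to 39080 CPM in 3, 6 and 9. The 16 libraries thus held Cd74 in 3 ranges in each tissue. H2-DMa and H2-DMb1, which exchange the invariant chain remnant for antigen peptide, were also higher in P6 than in P4, by 2.39 ± 0.07 and 2.81 ± 0.09, and Ifi30, a reductase that opens disulfide bonds of antigens, by 1.22 ± 0.08 (adjusted p = 8.63e-10, 1.97e-09 and 2.74e-07). Lgmn, the asparagine endopeptidase that matures several cathepsins, was lower, by -0.34 ± 0.05 (adjusted p = 0.000322). Of the 10 genes of this list, 5 were higher and 4 lower in P6.

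Of the cathepsins outside the 10, Ctsk, the collagen-cutting protease of osteoclasts, was lowest in P5. It was at 35.9, 37.2 and 54.0 CPM in P4, 8.22, 13.6 and 12.2 CPM in P5 and 117, 138 and 84.5 CPM in P6. P6 exceeded P5 by 3.31 ± 0.24 (log2, n = 3 against 3, edgeR adjusted p = 2.57e-06) and P4 by 1.42 ± 0.22 (adjusted p = 0.000353), and P5 was lower than P4 by -1.89 ± 0.23 (adjusted p = 0.000488). Of the 7 markers of an osteoclast list, which does not hold Ctsk, 5 were tested. In P6, 3 of these were higher and 1 lower than in P4, and 4 higher and 1 lower than in P5. Acp5, an acid phosphatase of osteoclasts and macrophages, was at 25.3 to 57.5 CPM in P4 and P5 and 167 to 218 CPM in P6. Atp6v0d2, a subunit of the proton pump, was at 9.22 to 22.9 CPM in P4 and P5 and 42.4 to 48.7 CPM in P6. Ocstamp and Dcstamp, which act in the fusion of osteoclast precursors, were at most 3.49 CPM in P4 and P5 and at 3.09 to 7.80 CPM in P6. Mmp9, a gelatinase, was at 468 to 840 CPM in P4 and P5 and 204 to 225 CPM in P6, so the sum of the list was 522 to 774 CPM in P4 and 439 to 478 CPM in P6. Calcr and Oscar were at or under 1.22 CPM in every library. Diaphragm libraries 1 and 7 held 37.9 and 20.5 CPM of Ctsk, and 2 and 8 held 2.09 and 3.61 CPM. Libraries 3, 6 and 9 held 2.47, 30.95 and 1.42 CPM. The part of osteoclast, fibroblast or other RNA in the level of Ctsk was not tested. Ctso, a little-studied cysteine cathepsin, was at 94.5 to 114 CPM in P4 and 79.2 to 87.7 CPM in P6 (-0.31 ± 0.10, adjusted p = 0.0365). Ctsw and Ctsg were at or under 8.65 CPM and too low to be tested.

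Among the inhibitors, Cst3 (cystatin C), a secreted inhibitor of cysteine cathepsins, was at 4210 to 4530 CPM in P4 and 3404 to 3736 CPM in P6 (-0.28 ± 0.07, n = 3 against 3, edgeR adjusted p = 0.00902). Between the tissues it did not overlap, with 3404 to 4530 CPM in dura and 2164 to 2868 CPM in diaphragm (0.60 ± 0.10, adjusted p = 0.000329). Cstb, an inhibitor inside the cell, was at 84.5 to 122 CPM in dura and 146 to 205 CPM in diaphragm, also without overlap (-0.72 ± 0.09, adjusted p = 2.84e-05). It did not pass between P6 and P4 (0.30 ± 0.11, adjusted p = 0.0512). Serpinb6a, a serpin of the cytosol, was at 260, 241 and 227 CPM in P4 and 76.2, 60.8 and 56.5 CPM in P6 (-1.91 ± 0.12, adjusted p = 2.03e-07). Serpina3g had a difference of -0.06 ± 0.27 between P6 and P4 (adjusted p = 0.887). Of the 9 inhibitors listed, 4 were tested in dura, 0 of them higher and 2 lower in P6 than in P4.

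The rest of the lysosomal genes were called in both directions between P6 and P4, as the cathepsins were. Of 29 other hydrolases, 9 were higher and 10 lower, beside 33.3% of all genes called. Psap, the precursor of the saposins that help break down sphingolipids, was at 3644 to 3845 CPM in P4 and 9583 to 10720 CPM in P6 (1.45 ± 0.06, n = 3 against 3, edgeR adjusted p = 7.91e-09). Lyz2, lysozyme, rose by 0.88 ± 0.06 (adjusted p = 2.61e-07), whereas Hexa, a hydrolase of gangliosides, fell with a log2 difference of -0.47 ± 0.07 (adjusted p = 0.000191). Of 14 genes listed as membrane proteins, 4 were higher, among them Npc2, which is itself a soluble carrier of cholesterol in the lumen (0.67 ± 0.08, adjusted p = 3.73e-05), and 4 lower, among them Lamp1, an abundant glycoprotein of the membrane (-0.20 ± 0.06, adjusted p = 0.0174). Of 17 subunits of the proton pump, 4 were higher and 4 lower. Of 12 sorting genes, 2 were higher, among them M6pr, a receptor that carries hydrolases to the lysosome (0.61 ± 0.08, adjusted p = 7.04e-05), and 2 lower, among them Sort1, another such receptor (-1.65 ± 0.16, adjusted p = 8.83e-06). Of 12 regulators, Tfeb was higher, at 30.9 to 48.6 CPM in P4 and 64.6 to 71.5 CPM in P6 (0.69 ± 0.16, adjusted p = 0.00503). Its relative Tfec was lower, at 32.0 to 42.7 CPM in P4 and 4.61 to 6.66 CPM in P6 (-2.67 ± 0.18, adjusted p = 4.54e-07).

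**Figure D5:**
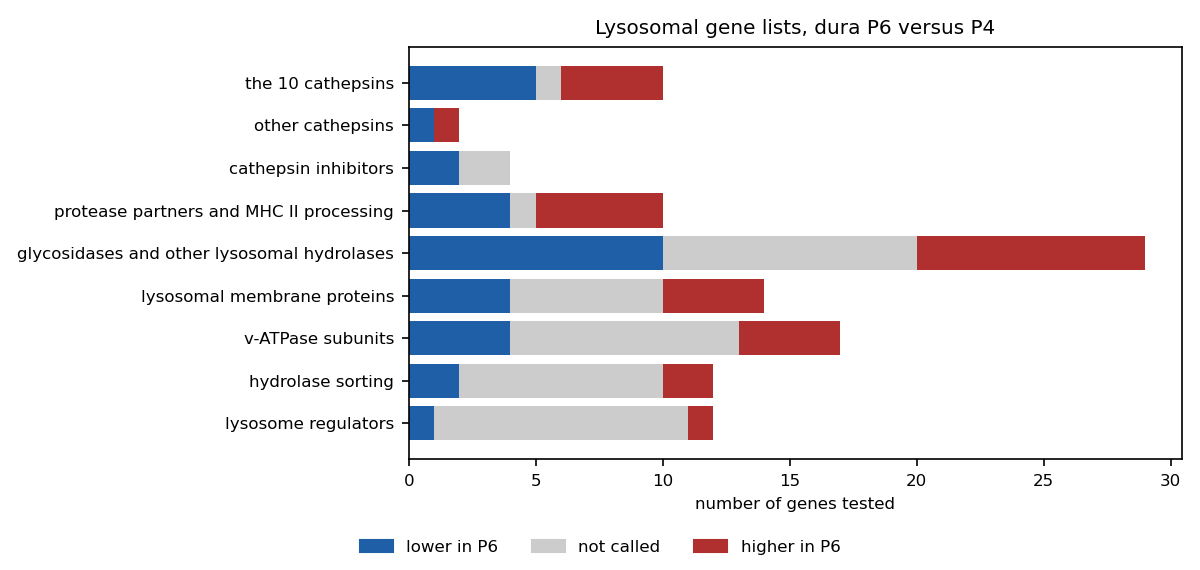
Number of genes of each lysosomal list that were higher in dural P6 than in P4 (red), lower (blue) or not called (grey) by edgeR's adjusted p, among the genes tested. Calls in both directions stand in 8 of the 9 bars, the exception being the inhibitors with 0 higher and 2 lower of 4.

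For 9 of the members, the gene outside the list whose pattern was most alike is given, by Pearson's r of log2(CPM + 1) over the 16 libraries, among the 6488 genes whose mean reached 20 CPM. The libraries share depth scaling and fall by tissue and mark, so r describes these libraries and was given no p. Grn, the precursor of granulins in the lysosome, was the most alike to both Ctsb (r = 0.975) and Ctsd (r = 0.964), at 2645 to 2700 CPM in P4 and 1600 to 1646 CPM in P6. Npc2 was the most alike to Ctss (r = 0.973), and Cyba, a subunit of the phagocyte NADPH oxidase, to Ctsz (r = 0.965). For Ctsh it was H2-T23, a non-classical MHC class I gene (r = 0.955), for Ctsl the transcription factor Nfia (r = 0.970), and for Ctsf the membrane protein gene Smagp (r = 0.982). For Ctse it was Retreg1, a receptor for turnover of the endoplasmic reticulum (r = 0.959), and for Ctsa it was Ppfibp2 (r = 0.924).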

How the data were processed

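Per the labels' protocols, RNA of sorted macrophages was read in 75-nucleotide single-end reads without strand. The tools in the submitters' processing notes are featureCounts, STAR 2.4.0j and DESeq2 1.20.0, and the build GRCm38, with no step given. The deposited table, made by the authors, holds whole-number counts and was read as raw counts, since column totals differ widely. Columns were tied to a tissue only, because their names match no title. Diaphragm columns of the same number (6 pairs, chi-square per degree of freedom 1.008 to 1.1692 over genes, against at least 10.5588 for other pairs of a tissue) were summed, and 2 columns with 1496 and 2115 counts were left out. Genes passing filterByExpr were tested with edgeR 4.0.16 (R 4.3.3, TMM, quasi-likelihood, two-sided, Benjamini-Hochberg over all genes). The tissue fit used 16 libraries and the marks the 9 dural ones. DESeq2 1.42.0, limma-voom 3.58.1, other scalings, no filter, a replicate block and left-out libraries were the alternatives. Named genes were the 10 members, up to 4 called genes of highest CPM per list and comparison, cathepsins and inhibitors of at least 20 CPM and the gene most alike to each member. Some genes that this rule takes are not reported here. Markers and genes overlapping a member were named besides. The members, lists and sets were chosen with earlier results of these data known. Deviations from the mark means correlated at 0.137 to 0.211 between same-numbered P4 and P5 libraries. Their numbers, which come from the column names, were thus taken as a pairing for P5 against P4 by a minimum of 0.1 in every pair. The main fit still held no block, so its values for P5 against P4 ignore this pairing. The blocked value is given where it changes a call. The test was checked on simulated counts. Of 100 genes given a log2 change of 0.5, it recovered 12 between the tissues and 13 between P6 and P4. Of 100 given a log2 change of 1, it recovered 61 and 59. A gene not called may thus still differ by such amounts, but the shares are those of the simulated setting. Its changed genes were few and of many count levels, so recovery of the abundant members was not measured. Coordinates are from GENCODE for GRCm38.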

Additional observations from a re-analysis of the deposited data

Results flagged for a closer look

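Counts of the cathepsins were also present in the 2 diaphragm columns left out of every comparison. The column of number 5 held 1496 counts in all, of which 5 were of Ctsb. The column of number 4 held 2115 counts, of which 9 were of Ctsb, 5 of Ctsc, 5 of Ctsd and 5 of Ctss. These exceeded 3 counts, the limit that a count of 0 allows, and the other members were at or under it. No level is set beside those of the 16 libraries at this depth.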

How the results depend on the processing

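Between P6 and P4 and between P6 and P5, Ctsb, Ctsd, Ctsf, Ctsl, Ctss and Ctsz were called in the same direction in all 17 alternatives, as were Ctsd, Ctsl and Ctss between P5 and P4. With one library left out, the members called ranged from 8 to 10 for P6 against P4, 7 to 8 for P6 against P5, 3 to 4 for P5 against P4 and 0 to 1 between the tissues. All genes called then ranged from 3717 to 4531 (4403 with all libraries), 1480 to 2503 (2299), 544 to 1136 (973) and 2969 to 3585 (3472), with 1480 and 544 both without P5 replicate 3. P5 against P4 had 557 without P4 replicate 3 and 607 without P5 replicate 4. Between the tissues, the 1 member called became 0 with no filter, with dural libraries summed per number, and without the P4 or the P5 libraries. It became 2 with limma-voom and 3 without the P6 libraries, settings for which no count over all genes is given here. Without diaphragm 1 and 7, Ctsz was called in place of Ctsc. All genes called between the tissues were 1259 with dural libraries summed and 2143 without P5, and between P5 and P4 1587 with no filter.

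The dural numbers 1, 3 and 4 recur in each mark. Deviations of same-numbered libraries correlated at 0.0475 to 0.167 between P4 and P6 and 0.058 to 0.225 between P5 and P6, so the numbers were not taken as a pairing in these comparisons. A library correlated best with the one of its own number in 17 of 18 cases, a hint from the data. With the number as a replicate block, 5 members and 1576 genes (11.9%) were called for P5 against P4, beside 4 members and 973 genes (7.35%) without the block. Ctsc was the only member whose call the block changed between P5 and P4.

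Uncalled differences changed sign. Between the tissues, Ctss (0.019) ranged from -0.072 to 0.106 with one library left out, below 0 without any one P6 library and without diaphragm 1 or 7. It became -0.004 with dural libraries summed, -0.21 without both 1 and 7, and -0.32 without P6. Ctsl became 0.13 and Ctsa -0.013 without 1 and 7, Ctsl 0.084 without P6, and Ctsd -0.12 without P4. Between P5 and P4, Ctsa, Ctsb and Ctsz became -0.125, -0.039 and -0.02 with library totals, and Ctsa -0.003 with upper-quartile factors. Ctsa (0.003) ranged from -0.026 to 0.039 with one library left out, below 0 without P4 replicate 3 and without P5 replicate 4. The cause was not tested. Library totals moved the median of all genes to -0.13 for P5 and for P6 against P4, and 0.12 between the tissues. The share of calls that were higher went from 42.2% to 61.0% (54.3% with upper-quartile factors) between the tissues, 42.0% to 22.2% (30.6% with the libraries of 2 marks alone) for P5 against P4, and 48.1% to 34.8% for P6 against P4. Levels of Ctse in diaphragm rest on 3 to 132 counts.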
